A study of Mus musculus with 11 samples.

Results

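Replication-dependent histone genes were followed across 5 genotype groups of sorted mouse thymocytes. They were taken as every gene whose symbol starts with Hist1h, Hist2h, Hist3h or Hist4h and that had at least 10 reads summed over the libraries of its table. Of 70 such symbols in the annotation, 47 qualified in the Bcl11b table, out of 15093 genes with that many reads, and 38 in the Tcf7 table, out of 16412. The 38 were all among the 47. The rule used read sums only and no comparison between groups.

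The cells were CD24-TCRb- thymocytes purified by FACS, a fraction without the surface markers of most developing αβ T cells. At postnatal day 0 there were 2 Bcl11b +/+ libraries, 2 of genotype +/N440K and 2 of genotype D/N440K, where N440K is a changed residue of the transcription factor Bcl11b and D is an allele that the labels leave undefined. At postnatal day 7 there were 2 Tcf7 +/+ libraries and 3 labelled Tcf7 F/F:Vav1-Cre, where F/F marks a floxed Tcf7 gene and Vav1-Cre a recombinase active in blood cells generally, not in thymocytes alone. Nothing in the labels says that the libraries came from separate animals, so p-values measure only the spread between these libraries, which may be technical.

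Replication-dependent histone genes supply the linker histone H1 and the core histones H2A, H2B, H3 and H4 that package new DNA in S phase. Most of their mRNAs end in a short stem-loop in place of a poly(A) tail, and the stem-loop binding protein together with U7 snRNP and a cleavage complex makes that end. The mRNAs accumulate while DNA is copied and are degraded when replication stops, so they mark dividing cells, which abound in the thymus. Libraries were made by a modified RamDA-seq, in which both oligo(dT) and not-so-random primers copy the RNA. Transcripts without a tail are therefore copied as well.

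The stem-loop is the feature by which these mRNAs differ from others, so 6 examples are shown. Hist1h1e, Hist1h2ac and Hist1h2bj are genes that fell in Tcf7 F/F:Vav1-Cre, as described below, and the other 3 have other letters. They were read from GENCODE M21 transcripts (GRCm38), in T for U, with the 16 bases of the stem and loop in capitals and 5 flanking bases on each side.
Hist1h1e: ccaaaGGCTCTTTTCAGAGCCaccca
Hist1h2ac: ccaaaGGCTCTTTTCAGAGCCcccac
Hist1h2bj: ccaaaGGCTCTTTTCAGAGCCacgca
Hist1h2bk: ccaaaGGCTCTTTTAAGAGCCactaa
Hist1h3g: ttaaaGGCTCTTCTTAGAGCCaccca
Hist1h4d: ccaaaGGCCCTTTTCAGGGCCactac
The 16 bases lie in the 3′ untranslated region, Hist1h1e at chr13:23621782-23621797 (minus strand), Hist1h2ac at chr13:23683477-23683492 (minus strand), Hist1h2bj at chr13:22043638-22043653 (plus strand), Hist1h2bk at chr13:22036300-22036315 (plus strand), Hist1h3g at chr13:23535889-23535904 (plus strand) and Hist1h4d at chr13:23581950-23581965 (plus strand). A stem-loop of this form was found in a transcript model of 35 of the 47 members and in 0.32% of the 21901 protein-coding genes. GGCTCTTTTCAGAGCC was the form in 18 members, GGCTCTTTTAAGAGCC in 6 and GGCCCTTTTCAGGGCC in 5, and 8 forms occurred in all. It began 21 to 54 bases after the stop codon, with a median of 31. Of the other 12, Hist1h2bc and Hist2h2be have models that go on 742 and 2192 bases past the stop codon without this form. The remaining 10, among them Hist1h1b, Hist1h2ai and Hist1h2ak, have models that end at the stop codon or at most 48 bases after it, too short to settle whether they hold one. In 21 members the longest model goes on for over 100 bases past the stem-loop.

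Promoters are shown because all 38 members of the Tcf7 table had a lower mean in Tcf7 F/F:Vav1-Cre. Motifs were not set against the fold changes, and whether promoters have a part in that difference was not tested. The 120 bases before the RefSeq start site (GRCm38.p6) of 1 H1, 1 H2A, 1 H2B and 1 H4 gene follow, with every match to 4 motifs on either strand in capitals.
Hist1h1b: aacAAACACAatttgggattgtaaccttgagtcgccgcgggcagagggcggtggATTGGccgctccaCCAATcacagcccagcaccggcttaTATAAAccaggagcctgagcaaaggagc
Hist1h2ac: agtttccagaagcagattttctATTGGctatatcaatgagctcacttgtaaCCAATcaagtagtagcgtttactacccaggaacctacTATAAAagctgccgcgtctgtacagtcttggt
Hist1h2bg: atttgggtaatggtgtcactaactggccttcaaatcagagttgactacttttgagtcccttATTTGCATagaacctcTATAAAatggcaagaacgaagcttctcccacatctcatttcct
Hist1h4d: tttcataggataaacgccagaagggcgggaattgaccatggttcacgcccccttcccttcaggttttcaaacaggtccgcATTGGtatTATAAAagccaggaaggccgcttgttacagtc
These windows are Hist1h1b at chr13:21780626-21780745 (minus strand), Hist1h2ac at chr13:23683960-23684079 (minus strand), Hist1h2bg at chr13:23571280-23571399 (plus strand) and Hist1h4d at chr13:23581448-23581567 (plus strand). Promoters of 41 of the 47 members were matched by Entrez identifier, each 300 bases from 250 before to 50 after the start. The TATA motif TATAAA was in 58.5% of them and in 13.6% of all 32851 promoters. The CCAAT motif was in 85.4% against 37.4%, including all 6 H1, 10 H2A, 11 H2B and 5 H3 promoters but 3 of 9 H4 promoters. The octamer ATTTGCAT was in 9 members, 5 H2A and 4 H2B, or 22.0% against 1.74% of all promoters. The H1 box AAACACA was in 5 of 6 H1 promoters, against 7.18% of all. Both strands were searched, a match is only a run of letters, and windows of head-to-head genes overlap, so they are not independent.

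Members lay in 4 clusters. Of the 47 members, 41 were Hist1 genes of chromosome 13, 3 Hist2, 2 Hist3 and 1 Hist4. The Hist1 members formed 2 stretches, chr13:21715763-22043676 with 13 of them and chr13:23531050-23764406 with 27, while Hist1h2al, annotated as a processed pseudogene, stood apart at chr13:51202727-51203065. Head-to-head pairs with starts 176 to 296 bases apart numbered 6, each of an H2A and an H2B gene.

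Copies of a histone gene are near identical, and this bears on every count below. For each gene the share of its 50-base windows that occur in no other gene of the annotation, on either strand, was taken. Windows under an overlapping gene at the same place therefore count as shared, as do those held by another copy. It was 98.8% at the median of the 6 H1 members, 42.0% for H2A, 56.2% for H2B, 50.5% for H3 and 73.2% for H4. Among the 23 symbols under the minimum in both tables the median was 10.2%, and 19 of them had under 50%. How the authors treated reads that map to several places is not given in the sources used here, so a low count of a gene with few private windows does not show low expression. Of the 47 members, 17 had under 50% private windows. Exons of 13 members overlapped another gene, most often a predicted gene on the other strand (11 of them, all the H2A members). The low H2A share thus mixes such overlap with likeness between copies. Nothing used here says whether reads were counted by strand.

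**Figure D1:**
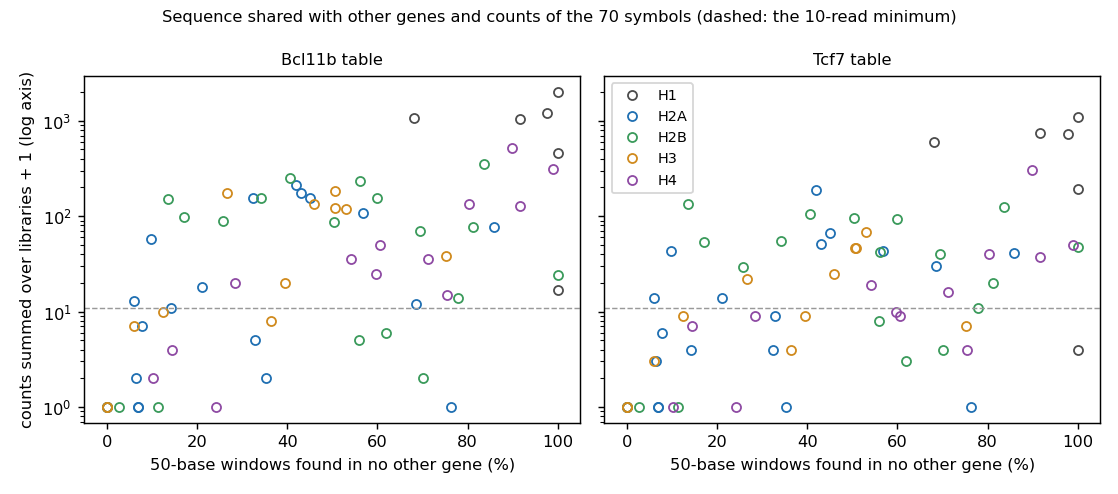
Counts summed over the libraries of a table, plus 1 on a log axis, against the percent of 50-base windows found in no other gene, for all 70 symbols and coloured by family. Genes at the low end of the x axis are mostly under the dashed 10-read line, and Hist1h1b, at 100%, had the highest count in both panels (2020 and 1099 reads).

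Total counts ranged from 999381 to 1246272 over the Bcl11b libraries and from 1273997 to 1842717 over the Tcf7 libraries. Replicate pairs differed by a chi-square per degree of freedom of 1.14 to 1.42 among Bcl11b genotypes, 1.70 to 2.16 among Vav1-Cre libraries and 4.94 between the 2 Tcf7 +/+ libraries. Levels are given as CPM, read counts scaled to an equal library size. Bcl11b itself was at 641.4 and 505.6 CPM in the 2 wild-type libraries of its table, at 185.2 and 225.0 with +/N440K and at 151.6 and 203.6 with D/N440K. The gene Tcf7 was not lower in the libraries labelled Vav1-Cre (846.7, 658.3 and 694.3 CPM) than in the wild type (552.2 and 593.5), and a gene-level count does not show whether its floxed part was removed. Cd24a, which encodes the antigen sorted against, was at most 12.45 CPM in any library. The 8 markers of T and innate lymphoid cells summed to 3012 to 4775 CPM per library, above each of the other marker lists.

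Members together took 0.136 to 0.196% of the counts of a Bcl11b-table library and 0.0478 to 0.0827% of a Tcf7-table library. The tables differ in age and were processed apart, so these shares were not compared by a test. Per kilobase of exon, so that genes can be ranked, Hist1h1b, a linker histone of dividing cells, was first in both tables, with means over all libraries of 417.5 CPM per kb at day 0 and 175.0 at day 7. Hist1h1c was second in both, at 102.5 and 57.02 CPM per kb. In the Bcl11b table Hist1h1a (94.96), Hist1h1e (86.39), Hist1h2bj (82.35) and Hist1h2al (69.92) followed, and the first H4 and H3 genes were Hist1h4d (69.69) and Hist1h3g (38.89). In the Tcf7 table Hist1h2ab (46.52), Hist1h2bn (41.94), Hist1h1e (36.31) and Hist1h4d (31.28) followed, and the first H3 gene was Hist1h3c (12.36). Every library of a table had more Hist1h1b than Hist1h1c per kilobase, while neighbours from Hist1h2al to Hist1h2ak (69.92 to 69.02) in the Bcl11b table lay within their spread over libraries. Exon models of 7425 bases for Hist1h1d and 4446 for Hist1h2be place these genes low per kilobase although Hist1h1d had 1205 reads. Hist1h2al had 17 to 37 reads in every Bcl11b-table library and 3 in the whole Tcf7 table, where it missed the minimum. The tables list 53801 and 55471 genes and may have been counted with different annotations, which was not tested.

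The first comparison asked whether histone genes differed with the Tcf7 F/F:Vav1-Cre genotype, and all 38 members of that table had a lower mean there than in Tcf7 +/+. Of all tested genes, 51.0% had a log2 fold change below 0, and the median was -0.01. Many members share sequence, so the 38 are not independent values. The summed level of the members was 767.5 and 835.9 CPM in the +/+ libraries and 492.5, 508.5 and 545.2 CPM in the Vav1-Cre libraries. The groups did not overlap, and the ratio of their means was 0.643. In bulk RNA, fewer dividing cells and less histone RNA per cell cannot be told apart. No test was made of this sum.

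**Figure D2:**
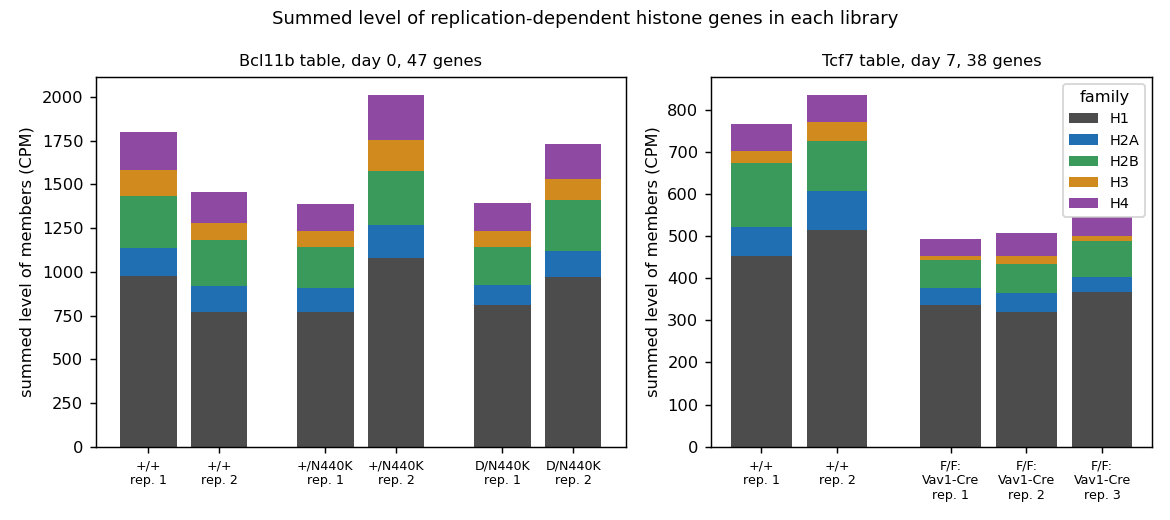
Summed level of the members in CPM for each library, stacked by family, in the Bcl11b table (left, 47 genes, 2 libraries per genotype) and the Tcf7 table (right, 38 genes, 2 and 3 libraries). The 3 Vav1-Cre bars, 492.5 to 545.2 CPM, are below both Tcf7 +/+ bars, whereas the bars of the 3 Bcl11b genotypes overlap in height.

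Of 12366 genes tested in this comparison, 23.2% were called at an edgeR adjusted p under 0.05, 11.1% as lower. Of the 38 members 24 passed the filter on low counts, and 9 of them were called, all lower. The filter favoured genes high in +/+: 8 of the 24 passed through the +/+ libraries alone, with 4 of the 9 called among them (Hist1h2ac, Hist1h2ai, Hist1h2ak and Hist1h2bf), and 0 through Vav1-Cre alone. Among the other 16 tested members 5 were called. With no filter beyond the 10 reads, all 38 members entered the fit, all 38 had a log2 fold change below 0, with a median of -0.89, and 9 were called. Libraries of the groups did not overlap, with Vav1-Cre lower, in 25 of the 38 members, against 22.4% of all genes with at least 10 reads, and in the other direction in 0, against 22.6%.

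Linker histones, which bind DNA between nucleosomes, held the most reads. Hist1h1b (ENSMUSG00000058773, chr13:21779883-21780625, minus strand) stood at 160.0 and 169.7 CPM in the +/+ libraries, and at 105.9, 96.05 and 118.5 CPM in Vav1-Cre. All 3 Vav1-Cre libraries were below both +/+ libraries, and the log2 fold change of -0.62 ± 0.146 (SE) passed the test (edgeR adjusted p = 0.004735). All of its 50-base windows are private to it, so this value does not rest on reads shared with another copy. It lost its call only without Vav1-Cre replicate 2 (edgeR adjusted p = 0.05409) among 13 alternatives, with a log2 fold change between -0.71 and -0.54. Hist1h1e had 69.87 and 106.5 CPM against 57.41, 54.81 and 61.75, a log2 fold change of -0.60 (SE 0.196, edgeR adjusted p = 0.03461). Its exons overlap those of Hist1h2be on the same strand, and its 2 +/+ values lie further apart than the groups do. Its call was lost in 6 of the 13 alternatives, among them the replicate block, DESeq2 and each Vav1-Cre library left out, with a log2 fold change between -0.87 and -0.27.

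Hist1h1a, Hist1h1c and Hist1h1d, the other H1 genes, had log2 fold changes of -0.86, -0.26 and -0.37 and were not called (edgeR adjusted p = 0.05592, 0.2527 and 0.1083). Hist1h1c, the second most abundant member, had 99.74 and 98.07 CPM in +/+ and 81.67, 76.84 and 88.46 CPM in Vav1-Cre. Its values do not overlap between the groups, but the difference did not pass (SE 0.157). Summed over the 5 H1 genes, levels were 451.9 and 513.5 CPM against 336.4, 319.8 and 367.7, a ratio of 0.707.

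H2A and H2B form the dimers at the edge of the nucleosome, and 7 of the 9 called genes encode them. Of these 7, 4 were tested only because they were high in +/+. These families also held most of the 24 tested members, with 6 H2A and 8 H2B genes. Hist1h2ac had 7.325 and 9.018 CPM in +/+ and 0.8087, 3.955 and 1.669 CPM in Vav1-Cre, a log2 fold change of -1.81 (SE 0.565, edgeR adjusted p = 0.02562). These are 29 reads against 11 in all, and the gene passed the filter through +/+ alone, so a difference in this direction was favoured. Hist1h2ak had 6.198 and 13.53 CPM against 4.852, 3.39 and 1.669, a log2 fold change of -1.63. Hist1h2ai had 7.889 and 7.891 CPM against 2.426, 2.825 and 3.338, a log2 fold change of -1.42. Both +/+ libraries were above all 3 Vav1-Cre libraries in each of these H2A genes, and Hist1h2ak and Hist1h2ai also passed through +/+ alone. Hist1h2ab, the most abundant H2A gene of this table, had 24.23 and 34.38 CPM against 19.41, 18.08 and 13.91 (-0.79, SE 0.268, edgeR adjusted p = 0.04199). The call was lost in 5 of 13 alternatives for Hist1h2ac (log2 fold change -2.56 to -1.52) and for Hist1h2ak (-2.08 to -0.96, edgeR adjusted p up to 0.4509), and in 7 for Hist1h2ai and Hist1h2ab. Of these 4 genes only Hist1h2ac had over 50% private windows, at 85.9%, and each overlaps a predicted gene on the other strand, Hist1h2ac also Gm24991 on its own strand.

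Among H2B genes, Hist1h2bj had 21.41 and 15.22 CPM in +/+ and 5.661, 8.475 and 9.458 CPM in Vav1-Cre, a log2 fold change of -1.18 ± 0.335 (SE, edgeR adjusted p = 0.01639). Hist1h2bf had 12.4 and 7.891 CPM against 3.235, 2.825 and 5.007, a log2 fold change of -1.42 (edgeR adjusted p = 0.03226), and it too passed the filter through +/+ alone. Hist1h2bg had 13.52 and 19.16 CPM against 7.278, 9.04 and 6.676, a log2 fold change of -1.08 (edgeR adjusted p = 0.02861). None of the 3 overlaps an exon of another gene, and the groups do not overlap in any of them. Private windows made up 40.6% of Hist1h2bj, 34.2% of Hist1h2bf and 50.3% of Hist1h2bg, so their counts may hold reads shared with other copies. The call was lost in 3 of 13 alternatives for Hist1h2bj, in 4 for Hist1h2bf and in 6 for Hist1h2bg, DESeq2 in each case among them. Hist1h2bn, the H2B gene with the highest level per kilobase here, was not called (-0.28, SE 0.304), with 18.03 and 17.47 CPM against 16.98, 10.17 and 17.25. Its level in 2 Vav1-Cre libraries was thus close to +/+, but only 13.6% of its windows are private. Summed over families, H2A stood at a ratio of 0.492 of Vav1-Cre to +/+ and H2B at 0.541.

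**Figure D3:**
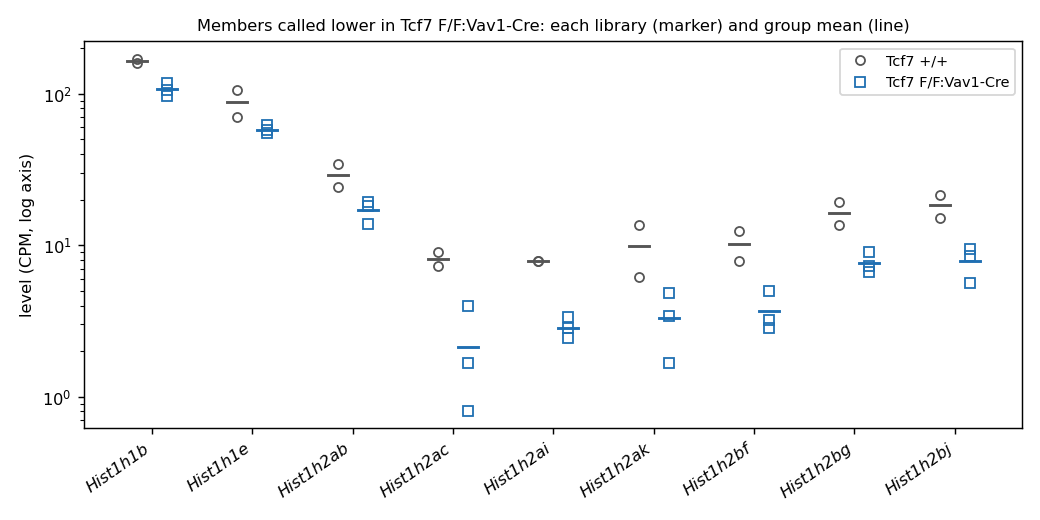
Level in CPM, on a log axis, of the 9 histone genes called lower in Tcf7 F/F:Vav1-Cre, with 1 marker per library (2 +/+ circles and 3 Vav1-Cre squares) and a line at each group mean. Every square lies below both circles of its gene, and Hist1h2ac shows the widest spread among squares, 0.8087 to 3.955 CPM.

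H3 and H4 form the tetramer at the centre of the nucleosome, and none of their 5 tested genes was called. Hist1h3a had 5.635 and 10.71 CPM against 4.043, 2.825 and 3.338 (-1.27, edgeR adjusted p = 0.0729), and Hist1h3c 11.27 and 10.71 against 4.043, 8.475 and 4.451 (-0.91, edgeR adjusted p = 0.1218). In both genes the groups do not overlap. Hist1h4d, the H4 gene with most reads, had 45.08 and 41.15 CPM against 26.69, 34.47 and 30.6 (-0.48, SE 0.212, edgeR adjusted p = 0.1126). The summed ratio was 0.397 for H3 and 0.704 for H4. Whether families differ from each other in size of change was not tested.

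The 14 members that missed the filter had 10 to 45 reads each. Hist1h3f, one of these, had 33 reads over the 2 +/+ libraries and 12 over the 3 Vav1-Cre libraries. Within the head-to-head pairs Hist1h2ae and Hist1h2bg stood at -1.12 and -1.08, Hist1h2ak and Hist1h2bn at -1.63 and -0.28, Hist1h2ai and Hist1h2bl at -1.42 and -0.60, and Hist2h2ac and Hist2h2be at -0.75 and -0.55. The 2 genes of a pair were closest for Hist1h2ae and Hist1h2bg and furthest apart for Hist1h2ak and Hist1h2bn, and differences within pairs were not tested. Across chromosome 13, the stretch of 10 Tcf7-table members at 21715763 to 22043676 summed to 242.1 ± 5.28 CPM in +/+ (SD, n = 2) and 149.3 ± 14.9 in Vav1-Cre (SD, n = 3), and the stretch of 22 at 23531050 to 23764406 to 524.1 ± 40.7 and 343.4 ± 18.4 CPM. Both stretches were lower. Of the called genes, 6 carry the stem-loop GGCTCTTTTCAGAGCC, among 11 tested genes with it, and 3 are among the 7 tested genes in which no model holds a stem-loop.

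Genes that act with the histone genes were followed from fixed lists. Of 11 genes for their transcription and timing 5 were called lower and 0 higher: Npat, the coactivator of histone transcription (-0.83), Casp8ap2 (-0.79), the cyclins Ccne1 (-1.31) and Ccne2 (-0.87), and E2f2 (-1.35, edgeR adjusted p = 2.7e-05). Of 16 tested genes for 3′ end processing and turnover 5 were lower, with Npat and Casp8ap2 counted again, Cstf2 (-0.56), Ncbp1 (-0.70) and Snrpd3 (-1.04). Of 19 histone chaperones 7 were lower, including Nap1l1 (-1.69), Anp32e (-0.95) and Nasp (-0.67), and Cabin1 was higher (0.51). Among variant histones that are also made outside S phase, 9 were tested, and 7 of these had a log2 fold change below 0 (median -0.22). Of the 9, 0 were called lower, and H2afy, which encodes macroH2A1, was called higher (0.44). Of 21 DNA replication genes 11 were lower (median -0.61), and of 20 G2 and mitosis genes 14 (median -0.77), Mki67 at -1.03 among them. Of all tested genes, 11.1% were called lower. The G2 and mitosis genes summed to 2395 and 3489 CPM in the +/+ libraries and 1676, 1683 and 1579 CPM in Vav1-Cre. The 2 +/+ libraries thus lay far apart on this list, though both were above all 3 Vav1-Cre libraries. The 22 listed DNA replication genes summed to 2480 and 2822 CPM against 1881, 1893 and 1860 CPM. A list of RNAs from other classes with at least 1 form lacking a poly(A) tail had 3 tested genes, with 0 lower and Neat1 higher (0.37), and a gene-level count does not separate the long form of Neat1 from its short form with a tail.

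Cell markers moved in the same comparison. Of the 8 markers of T and innate lymphoid cells, Tcf7 itself among them, 4 were called lower and 2 higher. Their sums were 3370 and 3463 CPM in +/+ and 3521, 3012 and 3088 CPM in Vav1-Cre. The 6 B-cell markers summed to 150.5 to 158.3 CPM in +/+ and 43.51 to 56.61 in Vav1-Cre, and 5 were called lower. The 7 myeloid markers summed to 342.1 to 561.2 CPM in +/+ and 928.9 to 1066 CPM in Vav1-Cre, and 4 of 5 tested were called higher. The 8 markers of immature or double-positive thymocytes summed to 831.9 to 849.2 against 445.8 to 450.4 CPM, with 6 of 7 tested called lower and 1 called higher. The 8 stromal markers summed to 193.9 to 215.2 against 343.0 to 386.5 CPM, with 2 of 3 tested called higher. No marker of these lists was at 0 throughout the table. The part of these cells in the histone values was not tested.

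The calls differed by tool and library. DESeq2 called 1 member, Hist1h1b, and limma-voom 10. Leaving out 1 library at a time left 2 to 10 calls, the fewest (2) without Vav1-Cre replicate 1 or 2, then 4 without Vav1-Cre replicate 3 and 5 without +/+ replicate 2. The median log2 fold change of the tested members stayed between -0.89 and -0.68 over all 13 alternatives.

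The other comparisons asked whether histone genes differed with the N440K allele at postnatal day 0, and no member passed the test in any of the 3 comparisons. Against 10.1% of all 10910 tested genes called in +/N440K against +/+, 12.4% in D/N440K against +/+ and 0.532% in D/N440K against +/N440K, 0 of the 32 tested members were called by edgeR, DESeq2 or limma-voom. By direction, 4.79% of all genes were called higher and 5.30% lower in the first, 6.10% and 6.31% in the second and 0.284% and 0.247% in the third. At an unadjusted edgeR p under 0.05 there were 1, 3 and 1 members. The median log2 fold changes of the members were 0.03, -0.05 and -0.16, and those of all genes 0.00. Leaving out 1 library at a time moved them to between -0.20 and 0.32, -0.24 and 0.04, and -0.49 and 0.15, so their sign rests on single libraries. The comparisons share libraries, so the values stand side by side and are not independent. On simulated counts of the same size, the share of simulated 2-fold changes recovered over all genes was 66 to 69%, and that of 4-fold changes 91 to 95%. The changed genes were drawn from all tested genes, and every gene was given the same spread. These shares therefore do not measure how often a change in a histone member would be called.

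**Figure D4:**
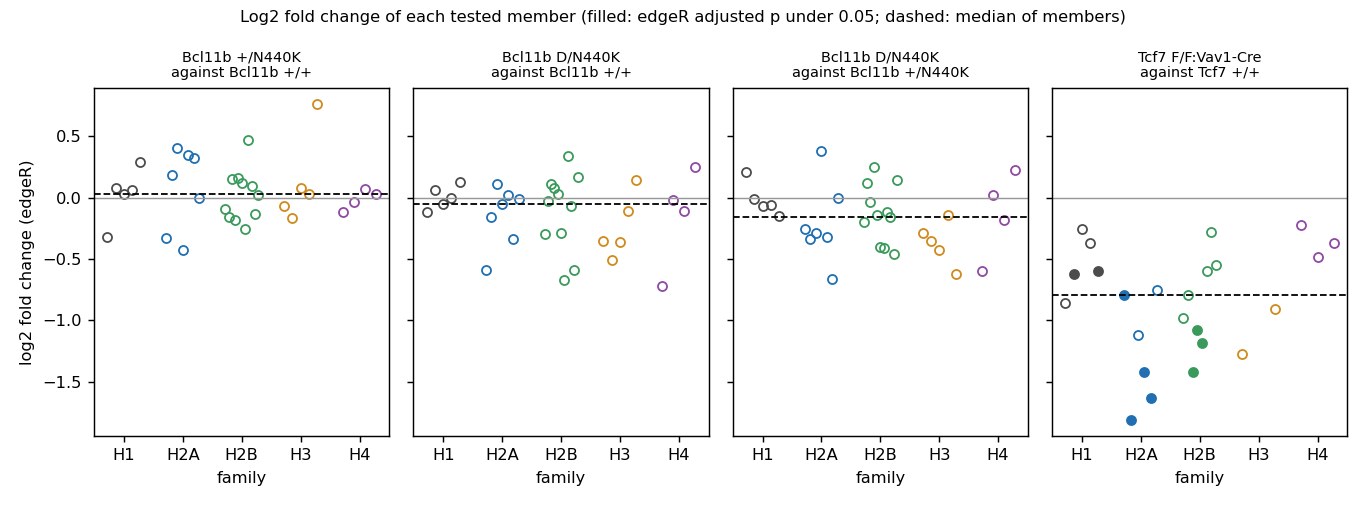
Log2 fold change (edgeR) of each tested member by family in the 3 Bcl11b comparisons (32 genes) and the Tcf7 comparison (24 genes). Filled points passed an edgeR adjusted p of 0.05, and the dashed line is the median of the members, which lies at 0.03, -0.05, -0.16 and -0.79 from left to right.

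Hist1h1b gave 323.3 and 276.5 CPM in the wild type, 275.0 and 360.3 CPM with +/N440K and 289.5 and 336.9 CPM with D/N440K. The ranges of the 3 genotypes overlap. Hist1h1e, with 174.9 and 127.0, 137.9 and 232.0, and 152.4 and 176.1 CPM, had the lowest p among H1 genes in +/N440K (log2 fold change 0.29, SE 0.156, edgeR adjusted p = 0.3144). The value rests on +/N440K replicate 2, without which it was -0.11.

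Among core histones, Hist1h3g gave 16.37 and 15.77 CPM in the wild type, 22.03 and 33.56 CPM with +/N440K and 14.56 and 21.37 CPM with D/N440K. Both +/N440K libraries were above +/+ (0.76, SE 0.321, edgeR adjusted p = 0.1407), the largest value of that comparison, and it did not pass. Hist1h2bj had 51.15 and 41.51, 35.91 and 41.46, and 23.12 and 35.62 CPM, so both D/N440K libraries were below both +/+ libraries (-0.67, SE 0.244, edgeR adjusted p = 0.06828). Hist1h2ab was also below +/+ in both D/N440K libraries, at 23.98 and 28.5 against 37.85 and 40.68 CPM (-0.59, edgeR adjusted p = 0.1319). Hist1h4c had 24.55 and 23.25, 13.87 and 31.58, and 11.13 and 18.32 CPM, and its log2 fold change in D/N440K against +/+ was -0.72 (SE 0.363, edgeR adjusted p = 0.2324). Both D/N440K libraries of Hist1h4c were also below both +/+ libraries. These 3 genes were named for the lowest p of their family in D/N440K against +/+, and Hist1h3g for that in +/N440K. Libraries that do not overlap were therefore favoured in these genes, and none passed the test over all genes.

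Of the 47 members, libraries did not overlap in the lower direction in 6, 8 and 7 and in the higher direction in 1, 2 and 2 of the comparisons in the order above. Among all 15093 genes with at least 10 reads the lower share was 24.5%, 25.6% and 16.9% and the higher share 21.1%, 22.8% and 18.5%. The 15 members that missed the filter had 10 to 49 reads each. The families gave no call either: in D/N440K against +/+ the medians were 0.00 for H1, -0.05 for H2A, -0.03 for H2B, -0.35 for H3 and -0.06 for H4. Among the alternatives run, calls appeared only when a library was left out. Hist1h1e was called higher in +/N440K without +/+ replicate 1 or +/N440K replicate 1, and Hist1h2bj and Hist1h2bm lower in D/N440K without D/N440K replicate 2.

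The 2 libraries of a genotype lay further apart than the genotype means did. The members summed to 1801 and 1459 CPM in the wild type, 1386 and 2014 CPM with +/N440K and 1395 and 1734 CPM with D/N440K, or 1630 ± 242, 1700 ± 444 and 1564 ± 240 (SD, n = 2 each). In raw reads the same sums were 1760 and 1757, 1698 and 2040, and 1629 and 1704. Within each pair the library with more counts in total had the lower histone CPM: the deeper library held 1.21, 1.20 and 1.18 times the counts of the shallower one, but 0.998, 0.832 and 0.956 times its histone reads. The median other gene had 1.23, 1.21 and 1.19 times the reads of the shallower library. In the Tcf7 table the 1.41 and 1.45 times deeper Vav1-Cre libraries had 1.48 and 1.61 times the histone reads of replicate 1. Library depth thus moved with the histone level within the Bcl11b pairs, and its part in these values was not tested.

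**Figure D5:**
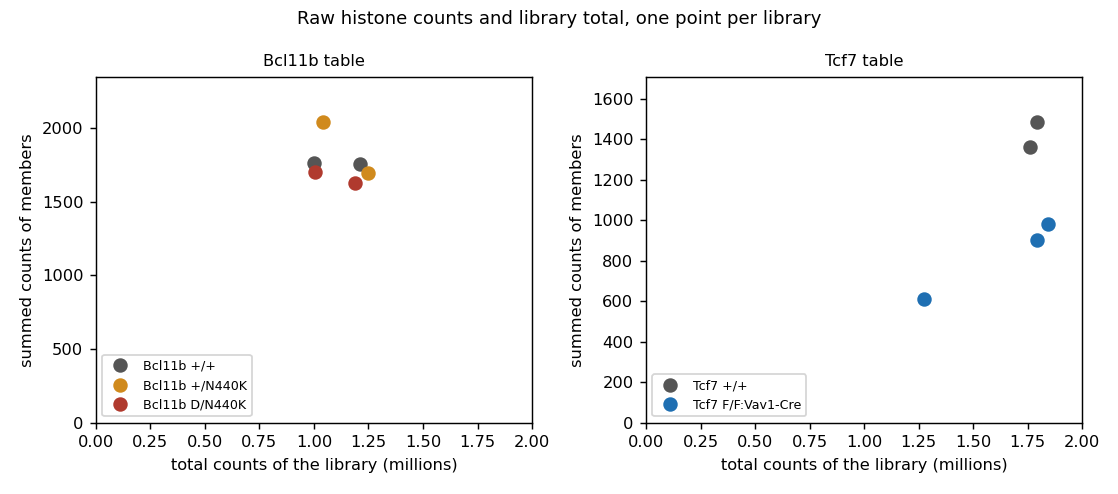
Summed raw counts of the members against the total counts of the library, with 1 point per library coloured by genotype. In the Bcl11b table (left) the sums stay between 1629 and 2040 while totals run from 999381 to 1246272, and in the Tcf7 table (right) both +/+ points lie above the Vav1-Cre points of like depth.

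Single genes were described in the same way. The variance of a gene's raw counts over the 6 Bcl11b-table libraries, divided by its mean, holds counting error, differences between libraries in total counts and differences between genotypes together. Its median was 0.982 for the 32 tested members and 2.11 for the other 10878 tested genes. For the 4 members with a mean count of at least 100 the median was 1.07, against 3.45 for other genes with a mean count from 100 to 337. Hist1h4d (0.233) and Hist1h1c (0.493) were among the low ones and Hist1h1e (4.46) was above the median of other genes. In the Tcf7 table the medians were 5.09 for the tested members and 5.02 for other genes, and 12.1 and 7.59 from a mean count of 100 upward. These are descriptions of unnormalised counts, with no test.

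Related genes at postnatal day 0 were followed from the same lists. Of all tested genes, 4.79% were called higher and 5.30% lower in +/N440K against +/+. In D/N440K against +/+ these shares were 6.10% and 6.31%. Cdk2, a kinase of S phase entry, was lower in +/N440K (-0.52) and D/N440K (-0.68) than in +/+, and E2f3 lower in D/N440K (-0.59). Of 16 tested genes for 3′ end processing and 19 chaperones 0 were called in any of the 3 comparisons. Of 21 DNA replication genes, Mcm10 (-0.47) and Cdc45 (-0.57) were lower in +/N440K and Mcm3 (-0.31) in D/N440K. Of 20 G2 and mitosis genes, 0 were called in +/N440K, and 5 were higher in D/N440K than in +/+. These were Mki67 (0.32), Ccnb2 (0.42), Ccna2 (0.36), Cenpe (0.44) and Birc5 (0.57). In D/N440K against +/+, 3 of the 20 had a log2 fold change below 0, and the median was 0.22. In +/N440K against +/+, 5 were below 0, and the median was 0.13. Of the variant histones, H2afx, whose mRNA can carry either a stem-loop or a tail, was higher in +/N440K (0.39, edgeR adjusted p = 0.02845). Cell markers moved at postnatal day 0 while the histone medians lay between -0.16 and 0.03. Of the 8 markers of T and innate lymphoid cells, Bcl11b itself among them, 5 were called lower and 2 higher in each N440K genotype against +/+. The 8 markers of immature or double-positive thymocytes summed to 518.7 and 526.4 CPM in +/+ and to 47.1 to 58.23 over the 4 libraries of the N440K genotypes, with 6 of 6 tested called lower in each genotype. The 7 myeloid markers summed to 107.4 and 157.7 CPM in +/+, 216.3 and 256.6 CPM with +/N440K and 305.7 and 304.3 CPM with D/N440K, with 2 and 3 of 4 tested called higher. Erythroid markers summed to 92.49 to 123.2 CPM in D/N440K against 29.06 to 62.40 in +/+, with 3 of 4 tested called higher. The part of these cells in the histone values was not tested.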

How the data were processed

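The deposited values are raw read counts by Ensembl gene identifier, whole numbers, in 1 table for the 6 Bcl11b libraries and another for the 5 Tcf7 libraries. The submitters' processing notes name HTSeq 0.11.2, STAR 2.7.3a, fastp 0.20.0, Picard 2.21.1, SAMtools 1.9 and edgeR, and the build mm10 (GRCm38). The annotation release, the strand setting and the handling of reads with several map positions are not given in the sources used here. The authors' normalised tables were not used.

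Here each table was filtered with filterByExpr (minimum count 10), scaled with TMM and fitted in edgeR 4.0.16 (R 4.3.3), quasi-likelihood F-test, 1 coefficient per group and 3 residual degrees of freedom, with Benjamini-Hochberg adjustment over all tested genes, two-sided, called under 0.05. Levels are CPM on the TMM library size. Alternatives were other normalizations and filters, a replicate block, DESeq2 1.42.0, limma-voom 3.58.1, the compared groups alone, and each library left out. The model was tested on simulated data of the same size. Named genes were every called member, the 6 highest per kilobase of each table and the highest of each family, the lowest p per family and comparison, and called genes of each list, up to 4 by p. A few further genes, among them Hist1h1d, Hist1h2be, Hist1h3f, pair members and list genes past the 4, were added after their values were seen. The members and the lists were chosen with earlier results of these data known. Same-numbered replicates did not deviate together (correlations of deviations -0.112 to 0.0736), so numbers were not taken as pairs.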

Additional observations from a re-analysis of the deposited data

How the results depend on the processing

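In the Tcf7 comparison the 9 calls became 4 with a replicate block and 1 with DESeq2, and 2 to 10 leaving out a library; other normalizations left the same 9. Hist1h1b, Hist1h2bj and Hist1h2bf held under the block. The median log2 fold change of -0.79 was -0.89 with no filter and ran from -0.87 to -0.68 leaving out a library. In the Bcl11b table the replicate block gave 0 calls in each comparison, as did the main analysis. Leaving out a library gave 0 to 1 calls in +/N440K against +/+ and 0 to 2 in D/N440K against +/+, and the sign of all 3 medians changed with the library left out: from 0.03 to between -0.20 (without +/N440K replicate 2) and 0.32 (without +/N440K replicate 1) in +/N440K against +/+, from -0.05 to between -0.24 (without +/+ replicate 2 or D/N440K replicate 2) and 0.04 (without +/+ replicate 1) in D/N440K against +/+, and from -0.16 to between -0.49 (without +/N440K replicate 1) and 0.15 (without +/N440K replicate 2) in D/N440K against +/N440K. Single genes changed sign with a library left out: in +/N440K against +/+, Hist1h4c ran from -0.77 to 0.40 (0.40 without +/N440K replicate 1) and Hist1h1e from -0.11 (without +/N440K replicate 2) to 0.64; Hist1h1e ran from -0.10 (without +/+ replicate 2) to 0.36 in D/N440K against +/+, and Hist1h4c from -1.12 to 0.06 (without +/N440K replicate 2) in D/N440K against +/N440K. The cause was not tested. A group left with 1 library took its spread from the other groups of the table. With 999381 to 1842717 counts per library, members with few reads are limited by counting error.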
